A study of Homo sapiens with 40 samples.

Results

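The SLAM family is a set of 9 related immune receptor genes on chromosome 1 (1q23): SLAMF1, SLAMF6, SLAMF7, SLAMF8, SLAMF9, CD48, CD84, CD244 and LY9. They are described here by the percent of each gene body that lay inside H3K27me3 peaks, in each library and group. The 9 genes were taken by name from 19451 protein-coding genes of at least 1 kb, and all 9 were among the 13977 genes tested, which had a mean covered percent between 1% and 99% over the libraries. The family was selected on measured values of these libraries: SLAMF8 had been seen among the largest gains of covered percent in the knockout clones and in the degron clones at day 21. The changes of the 9 genes in those comparisons are therefore given as a description, without a p-value, and SLAMF8 has none in any comparison with the same control libraries.

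All libraries came from KMS-11, a multiple myeloma cell line of human origin with the t(4;14) translocation, which drives high expression of NSD2, a methyltransferase that places H3K36me2. CUT&Tag, in which an antibody guides a transposase to a histone mark, was done for H3K27me3 on 50000 nuclei a library. In the knockout (KO) experiment the groups were wild-type parental cells and the NSD2 knockout clones 3 and 12. In the dTAG experiment they were the parental line used for engineering and the NSD2-dTAG clones 8 and 11, at days 0, 7, 14 and 21 of dTAGV-1. This compound links proteins fused to the dTAG domain with a ubiquitin ligase, and the fusion protein is then degraded. The clones were treated at 100 nM, and the labels state no dose for the parental line. Each of the 15 groups had 2 libraries, 30 in all. Each knockout or dTAG line is a single clone, so differences between clones and between genotypes rest on 2 clones. The series text calls the clones' replicates biological, while nothing says that the parental libraries came from separate cultures, so p-values on those measure a spread that may be technical. In what follows, 14 libraries are called NSD2-bearing (both parental lines on all days, and the dTAG clones at day 0) and 16 NSD2-depleted (the KO clones, and the dTAG clones at days 7, 14 and 21), by their labels alone.

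SLAM receptors are cell-surface proteins of the immunoglobulin superfamily, found on blood cells. Most of them bind the same receptor on a neighbouring cell, and their tails recruit the small adaptor proteins SAP (SH2D1A) and EAT-2 (SH2D1B). CD244 instead binds CD48. SLAMF7 is abundant on plasma cells and is the target of the myeloma antibody elotuzumab. H3K27me3 is written by Polycomb repressive complex 2 and marks chromatin of genes that are kept off, and H3K36me2, the mark NSD2 places, hinders that enzyme.

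The peak lists held 34740 to 205920 peaks, which covered 36.1 to 99.8 Mb in the NSD2-bearing and 78.3 to 168 Mb in the NSD2-depleted libraries. Depth was not listed, and an estimate of it, the background pileup in fragments per position, ran from 0.922 to 3.26 in the NSD2-bearing and from 1.61 to 2.84 in the NSD2-depleted libraries. The targeted gene, NSD2, had at most 0.975% of its bases inside peaks, with any coverage in 11 of 30 libraries, so peak lists say nothing about whether NSD2 was lost. Called length and the members moved together: over the 15 group means, Pearson's r between a gene's covered percent and the mean called length was 0.738 for CD48 and 0.822 to 0.962 for the other 8 genes. These r values are descriptions, and all genes of a group share its libraries and their depth.

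H3K27me3 peaks covered more of the SLAM genes in the NSD2-depleted libraries. In the 14 NSD2-bearing libraries the median covered percent was 1.13% for SLAMF6, 2.31% for CD84 and 8.44% for SLAMF1, and in the 16 NSD2-depleted libraries it was 18.5%, 21.0% and 27.3%. SLAMF8 went from a median of 18.3% to 39.2%, SLAMF9 from 19.0% to 34.0%, CD244 from 10.6% to 23.7% and LY9 from 6.92% to 13.9%. SLAMF7 was already broadly covered in NSD2-bearing cells, at 25.9%, and reached 43.5%. CD48 had 4.42% and 6.61%, and its ranges overlapped. For SLAMF1 and CD244 every NSD2-depleted library lay above every NSD2-bearing library. Of all genes tested, 8.21% showed that separation.

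**Figure D1:**
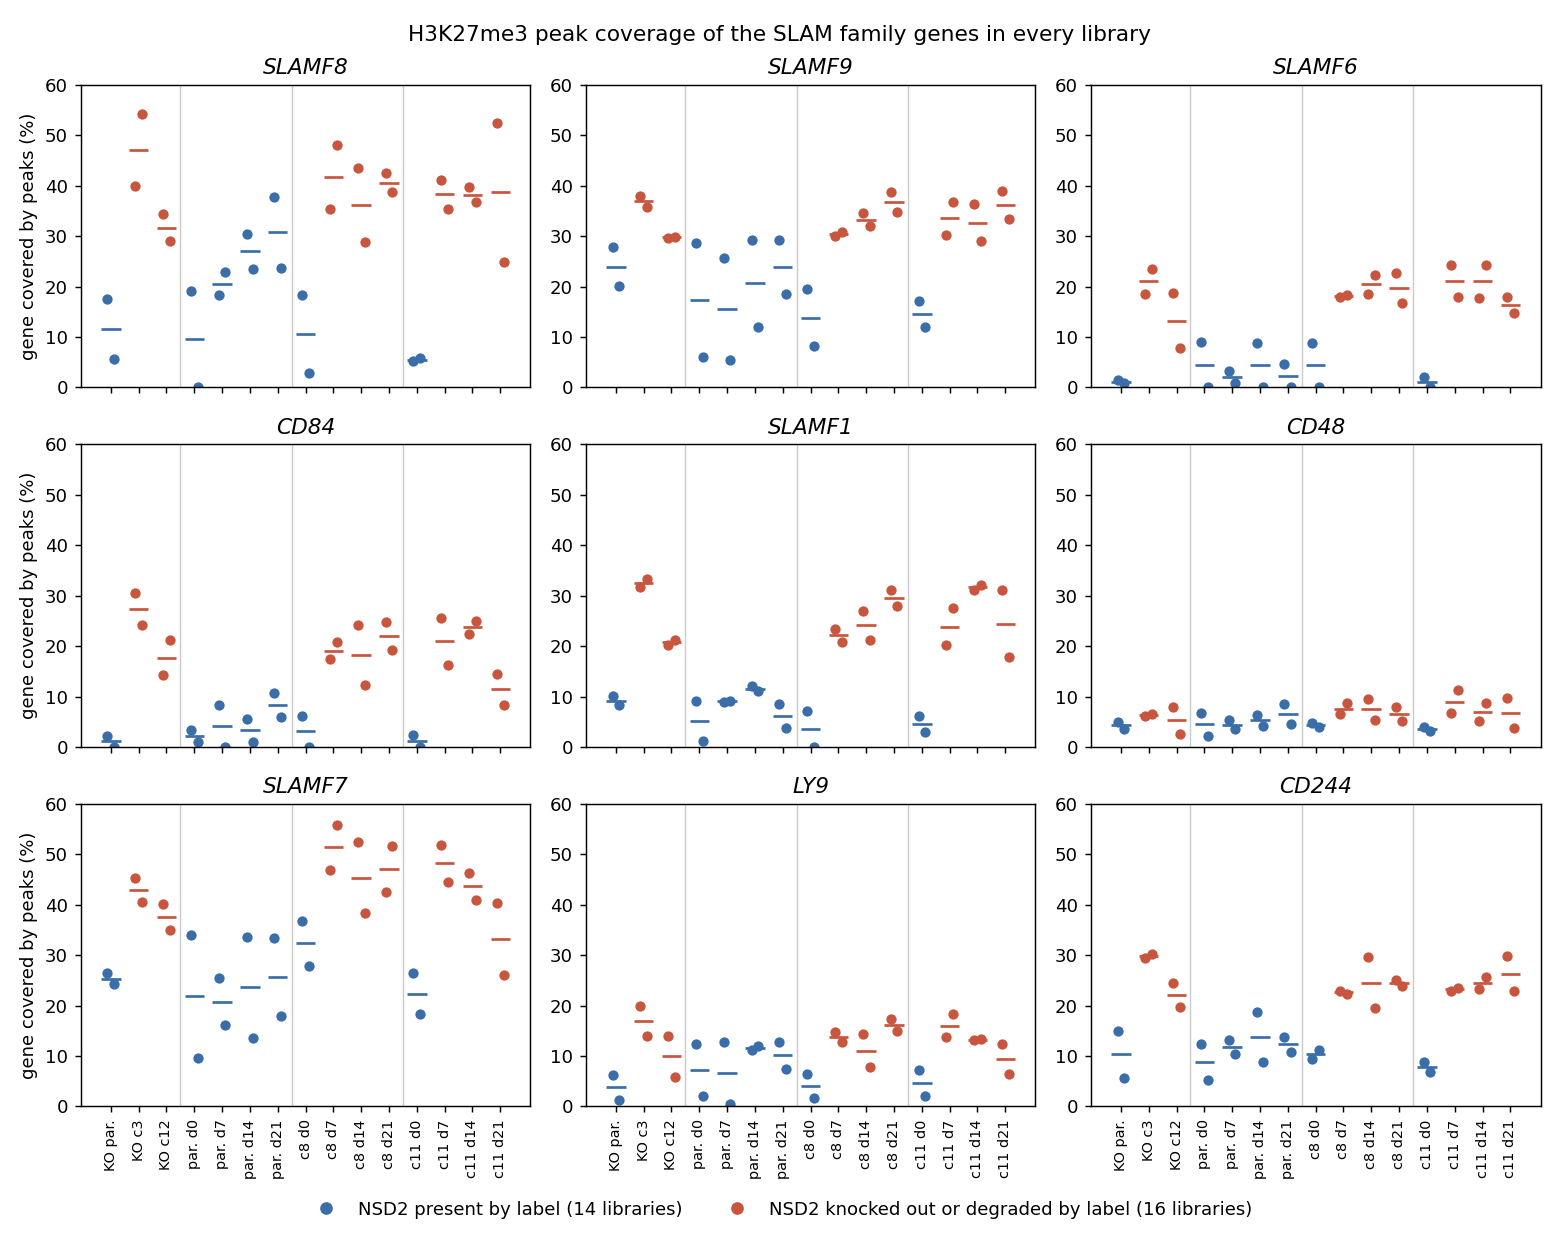
Percent of each SLAM family gene inside H3K27me3 peaks (y axis) in the 15 groups (x axis; par., parental; c, clone; d, day), with 1 point per library and a bar at the mean of the 2 libraries of a group. SLAMF1 and CD244 separate the 2 colours fully, SLAMF7 is already 9.59% to 36.8% covered in NSD2-bearing libraries, and CD48 stays at or below 11.2% throughout.

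Before any loss of NSD2, the genes differed in how much of their body was covered. In the 8 untreated NSD2-bearing libraries, SLAMF7 had the highest mean covered percent, 25.5% ± 8.58 (SD, n = 8), followed by SLAMF9 with 17.4% ± 8.42, CD244 with 9.35% ± 3.45 and SLAMF8 with 9.33% ± 7.71. Lower were SLAMF1 with 5.59% ± 3.78, LY9 with 4.96% ± 3.87, CD48 with 4.20% ± 1.38, SLAMF6 with 2.78% ± 3.88 and CD84 with 1.90% ± 2.16. A percent of the gene body is a level per length, so genes can be compared on it. For SLAMF9 most of the scored span lies upstream of the start site used further on. No neighbouring pair in this order differed by more than the larger of its 2 SDs. Such SDs run over libraries of different lines and clones, which all genes share, so they are descriptive. Differences between genes within a library were not tested. In the 16 NSD2-depleted libraries the order was SLAMF7, SLAMF8, SLAMF9, SLAMF1, CD244, CD84, SLAMF6, LY9 and CD48, from 43.7% ± 7.45 to 6.99% ± 2.30 (SD, n = 16). There the steps from SLAMF9 to SLAMF1, from SLAMF6 to LY9 and from LY9 to CD48 exceeded the larger SD of the pair, and the other 5 steps did not.

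SLAMF8 and SLAMF9 lie apart from the other members and have short tails without the switch motif that binds SAP. SLAMF8 (chr1:159826873-159837492, hg38, plus strand) is mostly a gene of myeloid cells. In the parental line of the KO experiment 17.6% and 5.63% of SLAMF8 was covered, in KO clone 3 40.0% and 54.3%, and in KO clone 12 34.4% and 29.0%. At day 0, SLAMF8 was covered by 18.3% and 2.88% in dTAG clone 8 and by 5.28% and 5.80% in clone 11. After 7 days clone 8 had 35.3% and 48.2%, and clone 11 had 41.2% and 35.4%. Every depleted library of each of these comparisons lay above every control library of its comparison, and so it did at day 14 (28.8% to 43.4% over 4 libraries) and day 21 (25.0% to 52.5%). Of all genes tested, 28.6% separated in this way in the KO clones, and 29.8%, 24.6% and 27.6% at days 7, 14 and 21. SLAMF8 was picked for its gains in the KO clones and at day 21, and all days share the day 0 controls. Nothing is therefore read from its separation. The differences, which for day 7 turn to a value below 0 when all lists are shortened to equal length, were 27.8 ± 7.66 percentage points in the KO clones (SE), 32.0 ± 6.25 at day 7, 29.1 ± 6.25 at day 14 and 31.6 ± 6.25 at day 21.

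SLAMF8 coverage in the dTAG parental line was uneven and was higher on later days. The 2 libraries of day 0 had 19.2% and 0%, those of day 7 had 18.3% and 22.9%, those of day 14 had 30.5% and 23.5%, and those of day 21 had 37.8% and 23.7%. The day 21 libraries both lay above both day 0 libraries, with a difference of 21.2 ± 8.84 points (limma adjusted p = 1, unadjusted p = 0.0282), and of 11.6 points without day 0 replicate 2. Called length in this line was also 1.35 times and background pileup 1.424 times as high at day 21 as at day 0. After each library was scaled to the same called length the difference was 25.5 ± 7.76 points (adjusted p = 0.403), and the part of the pileup was not tested. In the same line at day 21 no member was called in either direction by limma, and SLAMF8 was the 1 of 9 with an unadjusted p under 0.05. Of all tested genes 0.0143% were called there, and 3.83% had an unadjusted p under 0.05. As called, the rise of SLAMF8 in the clones exceeded that in the parental line by 21.0 ± 10.8 points at day 7, 11.7 ± 10.8 at day 14 and 10.5 ± 10.8 at day 21. On the scaled values the order turned: the clones rose by 20.1, 17.7 and 17.3 points and the parental line by 21.5, 24.8 and 25.5.

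SLAMF8 coverage was made of weak, wide peaks. Its strongest peak had a deposited -log10 q of 1.41 to 3.72 in the 13 NSD2-bearing libraries with a peak, and of 1.90 to 5.22 in the 16 NSD2-depleted libraries, with only 2 of them at 5 or above. The fold enrichment of these peaks, as the authors' lists give it, had a median of 2.04 in NSD2-bearing and 1.98 in NSD2-depleted libraries. The extent differed: the widest merged peak over SLAMF8 had a median length of 1545 bp against 2865 bp. The median number of peaks was 1 against 3, and the median -log10 q of the strongest was 1.89 against 3.08. When only peaks with -log10 q of at least 5 were kept, SLAMF8 coverage at day 21 and at day 0 was 0% in all 8 libraries of the clones.

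SLAMF9 (chr1:159951492-159983984, minus strand) was covered by 27.9% and 20.0% in the KO parental line and by 38.0%, 35.9%, 29.7% and 29.8% in the KO clones. The start site used here is at chr1:159954237, near the low end of that span. Most of the sequence scored as SLAMF9 therefore lies before the start. The 4 KO libraries lay above both parental libraries by a difference of 9.39 ± 6.48 points. In the dTAG clones it went from 8.23% to 19.5% over the 4 day 0 libraries to 30.0% to 36.8% at day 7 (difference 17.8 ± 5.29, limma adjusted p = 0.0231) and 29.1% to 36.3% at day 14 (18.8 ± 5.29, adjusted p = 0.0150). SLAMF9 lost its call at each of days 7 and 14 when any of 4 libraries was left out: both clones' day 0 replicate 2 on either day, both clones' day 7 replicate 2 at day 7, and both clones' day 14 replicate 1 at day 14. Its difference ran from 15.0 to 20.6 points at day 7 and from 16.0 to 21.6 at day 14 over these fits. The 4 libraries of day 0 serve as control for days 7, 14 and 21, so these comparisons are not independent of each other.

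SLAMF6 and CD84, receptors that bind their own kind, went from nearly bare to partly covered genes. SLAMF1, another such receptor, started higher, at a median of 8.44% in NSD2-bearing libraries. SLAMF6 (Ly108, chr1:160485036-160523255) was covered by 1.41% and 0.848% in the KO parental line, by 18.5% and 23.5% in KO clone 3 and by 18.7% and 7.79% in KO clone 12. In clone 8 it went from 8.91% and 0% at day 0 to 18.0% and 18.4% at day 7, and in clone 11 from 2.10% and 0% to 24.3% and 17.9%. Depleted and control libraries did not overlap in either experiment, as for 24.6% to 29.8% of all genes in the KO clones and at days 7, 14 and 21. The difference was 16.0 ± 3.67 points in the KO clones, 16.9 ± 2.99 at day 7 (limma adjusted p = 0.00102), 18.0 ± 2.99 at day 14 (adjusted p = 0.000399) and 15.3 ± 2.99 at day 21. In the 8 libraries of the dTAG parental line SLAMF6 stayed between 0% and 8.99%, with a difference of -2.17 ± 4.23 points from day 0 to day 21 that turns to 2.33 without day 0 replicate 1 and to 0.156 without day 21 replicate 2.

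CD84 (SLAMF5, chr1:160541098-160579496) had 2.20% and 0% covered in the KO parental line, 30.6% and 24.2% in KO clone 3 and 14.3% and 21.2% in KO clone 12, a difference of 21.5 ± 3.71 points. In the dTAG clones the 4 day 0 libraries had 0% to 6.20%, and the day 7 libraries 16.3% to 25.5%. The difference was 17.9 ± 3.03 points at day 7 (limma adjusted p = 0.000855), 18.9 ± 3.03 at day 14 (adjusted p = 0.000322) and 14.5 ± 3.03 at day 21. Clone 11 had 22.5% and 25.0% at day 14 but 14.4% and 8.38% at day 21, below clone 8 at 24.8% and 19.1%. SLAMF1 (CD150, chr1:160608106-160647044), the founding member of the family and a receptor of measles virus, had 10.0% and 8.26% in the KO parental line, 31.7% and 33.4% in KO clone 3 and 20.3% and 21.3% in KO clone 12. Its difference was 17.5 ± 3.44 points in the KO clones, 18.9 ± 2.81 at day 7 (adjusted p = 0.000387), 23.8 ± 2.81 at day 14 (adjusted p = 3.89e-05) and 22.9 ± 2.81 at day 21. None of SLAMF6, CD84 and SLAMF1 lost its call at days 7 or 14 when any single library was left out.

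Within SLAMF1 the new coverage was scattered along the gene. Of its 38 windows of 1 kb, 11 were covered over at least 50% of their bases in at least 8 of 16 NSD2-depleted but fewer than 7 of 14 NSD2-bearing libraries. The window at the far end of the gene from its start was covered in 0 of 14 NSD2-bearing and 14 of 16 NSD2-depleted libraries. CD84 had 8 such windows of 38 and SLAMF6 5 of 38. No window of SLAMF1, CD84 or SLAMF6 reached both numbers, 8 of 16 and 7 of 14. SLAMF7 had 3 of 15 that were, and CD244 4 of 32.

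SLAMF7 (CS1, chr1:160739057-160754821) was the most covered member with NSD2 present. It had 26.5% and 24.3% in the KO parental line, 45.3% and 40.6% in KO clone 3 and 40.1% and 35.1% in KO clone 12, a difference of 14.9 ± 7.38 points. At day 0, clone 8 had 36.8% and 28.0% and clone 11 had 26.4% and 18.4%. At day 7 they had 47.0% and 55.8%, and 51.9% and 44.5%, a difference of 22.4 ± 6.03 points (limma adjusted p = 0.0134). The difference was 17.1 ± 6.03 at day 14 (adjusted p = 0.0494) and 12.7 ± 6.03 at day 21. The call at day 14 was lost in 7 of 8 fits that left out 1 library, all but the fit without clone 8 day 14 replicate 2, and that at day 7 without clone 8 day 0 replicate 2, clone 8 day 7 replicate 2 or clone 11 day 0 replicate 2. Over these fits the difference ran from 20.2 to 24.6 points at day 7 and from 13.6 to 20.7 at day 14. At day 21 the libraries overlapped: clone 11 replicate 2 had 26.0%, under the highest day 0 value. In the dTAG parental line SLAMF7 ranged from 9.59% to 34.1%, as widely within day 0 as over all days. SLAMF7 fell below its control on another scale, given further on.

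LY9 (CD229, chr1:160796174-160828255), another receptor that binds its own kind, had 6.25% and 1.37% in the KO parental line and 20.0%, 14.0%, 14.0% and 5.87% in the KO clones, and there the groups overlapped. Its difference was 9.68 ± 3.69 points in the KO clones, 10.5 ± 3.01 at day 7 (limma adjusted p = 0.0195), 7.79 ± 3.01 at day 14 (adjusted p = 0.0736) and 8.39 ± 3.01 at day 21. LY9 lost its call at day 7 without clone 8 day 0 replicate 2, clone 8 day 7 replicate 1, clone 11 day 0 replicate 2 or clone 11 day 7 replicate 2, and was called at day 14 without clone 8 day 14 replicate 2. Its difference then ran from 9.17 to 11.8 points at day 7 and from 6.18 to 9.40 at day 14. In contrast to SLAMF8, its strongest peak was strong in both kinds of library, with a median -log10 q of 8.87 in NSD2-bearing and 12.5 in NSD2-depleted libraries.

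CD48 and CD244 are a ligand and its receptor, and as called both had positive differences in the clones. CD244 (2B4, chr1:160830160-160862887), an NK and T cell receptor, had 15.1% and 5.61% in the KO parental line, 29.4% and 30.2% in KO clone 3 and 24.5% and 19.7% in KO clone 12. In the dTAG clones the day 0 libraries had 6.85% to 11.2% and the day 7 libraries 22.3% to 23.5%. Its difference was 15.6 ± 3.49 points in the KO clones, 13.8 ± 2.85 at day 7 (limma adjusted p = 0.00268), 15.4 ± 2.85 at day 14 (adjusted p = 0.000846) and 16.3 ± 2.85 at day 21. No single library decided its call at day 7 or 14. CD48 (chr1:160678746-160711822), the ligand, which is held in the membrane by a lipid anchor, had 5.05% and 3.56% in the KO parental line and 6.15%, 6.45%, 7.88% and 2.65% in the KO clones, with overlapping groups. In the dTAG clones it had 3.22% to 4.84% at day 0 and 6.46% to 11.2% at day 7, without overlap. The difference of 4.28 ± 1.70 points at day 7 did not pass (adjusted p = 0.0834), nor did that of 3.24 ± 1.70 at day 14 (adjusted p = 0.199). A test of the difference between the changes of these 2 genes was not made.

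Coverage of the starts differed between the genes. Start sites were known for 6 members, and 1 kb on each side was scored. The window of SLAMF6 held no peak in any of the 14 NSD2-bearing libraries, and 15 of the 16 NSD2-depleted libraries had one, covering 35.2% of the window at the median. The window of CD48 was covered in 14 of 14 NSD2-bearing libraries, from 38.4% to 91.9% with a median of 61.7%, and in 13 of 16 NSD2-depleted libraries with a median of 34.0%. In the dTAG clones the CD48 window had 42.2% to 90.9% at day 0, 6.10% to 64.2% at day 7, 0% to 84.0% at day 14 and 0% to 87.5% at day 21. Clone 8 had 85.0% and 90.9% at day 0 and 0% in both libraries at day 14, while clone 11 had 42.2% and 75.9% at day 0 and 51.1% and 84.0% at day 14. In the KO experiment the groups overlapped, with 38.4% and 39.2% in the parental line and 12.3% to 58.1% in the clones. The 1 kb window of the CD48 gene nearest to its start was covered over at least 50% in 12 of 14 NSD2-bearing and 4 of 16 NSD2-depleted libraries. Covered libraries rose from 7 of 14 to 16 of 16 at SLAMF8, from 11 of 14 to 16 of 16 at SLAMF9, from 13 of 14 to 16 of 16 at SLAMF1 and from 9 of 14 to 16 of 16 at CD244. Against its matched controls the start of SLAMF8 was more covered: it was at 0% in both KO parental libraries and at a median of 37.2% in the KO clones. In the dTAG clones the median there was 0% at day 0, with 62.8% in 1 of 4 libraries, and 27.9%, 28.2% and 23.8% at days 7, 14 and 21. The start of SLAMF8 was also covered in 6 of 8 libraries of the dTAG parental line, with a median of 54.2%. These windows come from the same libraries as the gene scores and were not tested.

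**Figure D2:**
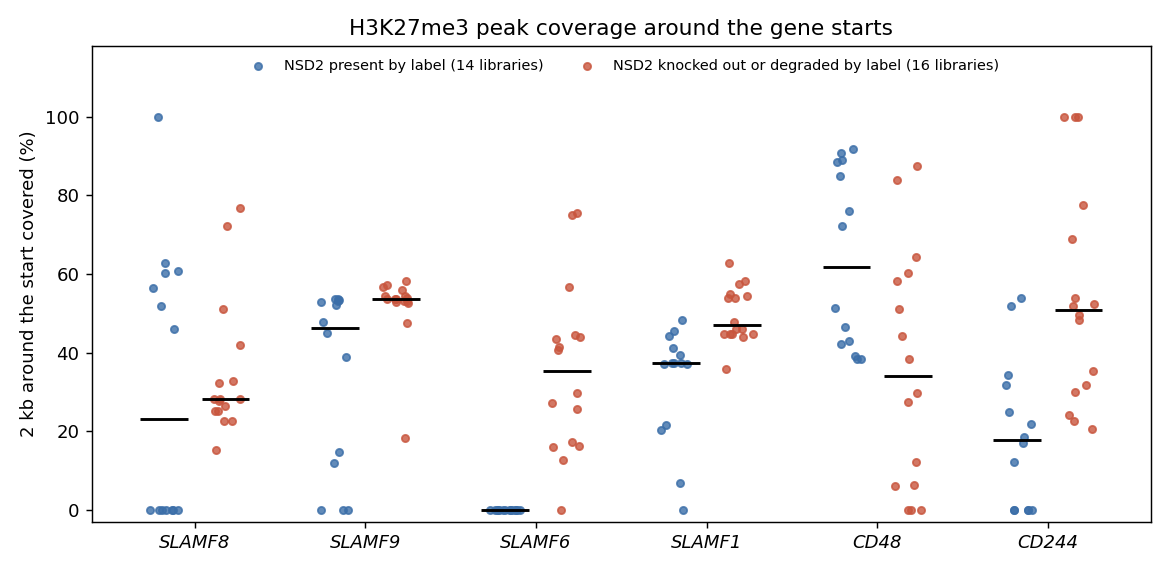
Percent of the 2 kb around the start of 6 SLAM family genes inside H3K27me3 peaks (y axis), with 1 point per library and black bars at the medians. SLAMF6 is at 0% in all 14 NSD2-bearing libraries, and the median of CD48 is lower in the NSD2-depleted libraries (34.0%) than in the NSD2-bearing ones (61.7%).

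The 250 bases before the start are shown for SLAMF6, where coverage of the start appeared, for CD48, whose start was covered in every NSD2-bearing library, and for SLAMF8, the member that led to the family. They are from RefSeq on GRCh38.p14, 5′ to 3′ on the strand of the gene, and capitals mark each CG, the step at which vertebrate DNA is methylated and which is dense in many Polycomb-bound promoters. They lie at chr1:160523256-160523505 (minus strand), chr1:160711823-160712072 (minus strand) and chr1:159826623-159826872 (plus strand).
SLAMF6: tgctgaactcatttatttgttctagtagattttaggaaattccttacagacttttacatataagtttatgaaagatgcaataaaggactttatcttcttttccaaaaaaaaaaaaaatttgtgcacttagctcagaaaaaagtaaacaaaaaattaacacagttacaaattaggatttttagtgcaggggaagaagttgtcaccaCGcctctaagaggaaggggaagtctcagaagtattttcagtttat
CD48: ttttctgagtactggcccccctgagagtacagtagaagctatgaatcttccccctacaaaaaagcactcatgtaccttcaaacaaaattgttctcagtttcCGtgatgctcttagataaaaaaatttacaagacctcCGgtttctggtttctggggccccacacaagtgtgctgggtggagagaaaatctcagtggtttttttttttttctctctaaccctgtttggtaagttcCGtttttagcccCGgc
SLAMF8: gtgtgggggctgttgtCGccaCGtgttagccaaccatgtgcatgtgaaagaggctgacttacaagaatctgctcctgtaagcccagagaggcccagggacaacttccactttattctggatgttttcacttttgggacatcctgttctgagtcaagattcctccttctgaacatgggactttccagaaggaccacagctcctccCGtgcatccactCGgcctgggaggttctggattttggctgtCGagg

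All 3 stretches were poor in CG. SLAMF6 held 1 CG, CD48 4 and SLAMF8 5 in 250 bases, and CD244, SLAMF1 and SLAMF9 held 1, 4 and 6. CG reads the same on both strands. Over 15413 promoters of the same length the median was 18, and 97.3% held at least 1, 84.2% at least 4 and 80.9% at least 5. With at most 1 CG, SLAMF6 and CD244 were among the 7.39% of promoters with the fewest. Base composition differed, from 30.8% G or C at SLAMF6 to 52.4% at SLAMF8. SLAMF6 and CD244 had the same number of CG, and the start window of CD244 was covered in 9 NSD2-bearing libraries against 0 for SLAMF6. A relation between the number of CG and the coverage of the starts was not tested. Of the authors' peaks, 14 of 14 NSD2-bearing lists and 10 of 16 NSD2-depleted lists had one over the printed stretch of CD48, and 0 of 14 and 3 of 16 over that of SLAMF6. Over that of SLAMF8, 6 of 14 NSD2-bearing and 3 of 16 NSD2-depleted lists had one. The printed stretch of SLAMF8 thus had a peak in fewer depleted lists, although its wider start window had one in 16 of 16.

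The members from SLAMF6 to CD244 form a block of 378 kb (chr1:160485036-160862887). Peaks covered more of it in the NSD2-depleted libraries, both inside and between the genes. They took 3.84% to 11.8% of the block in NSD2-bearing and 14.6% to 22.8% in NSD2-depleted libraries, without overlap. The 229 kb inside the genes went from a median of 6.51% to 20.9%, and the 149 kb between them from 8.33% to 17.7%. The genes were more covered than the DNA between them in 1 of 14 NSD2-bearing and 13 of 16 NSD2-depleted libraries. SLAMF8 and SLAMF9 lie 114 kb apart, and SLAMF9 and SLAMF6 are separated by a further 501 kb with other genes.

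**Figure D3:**
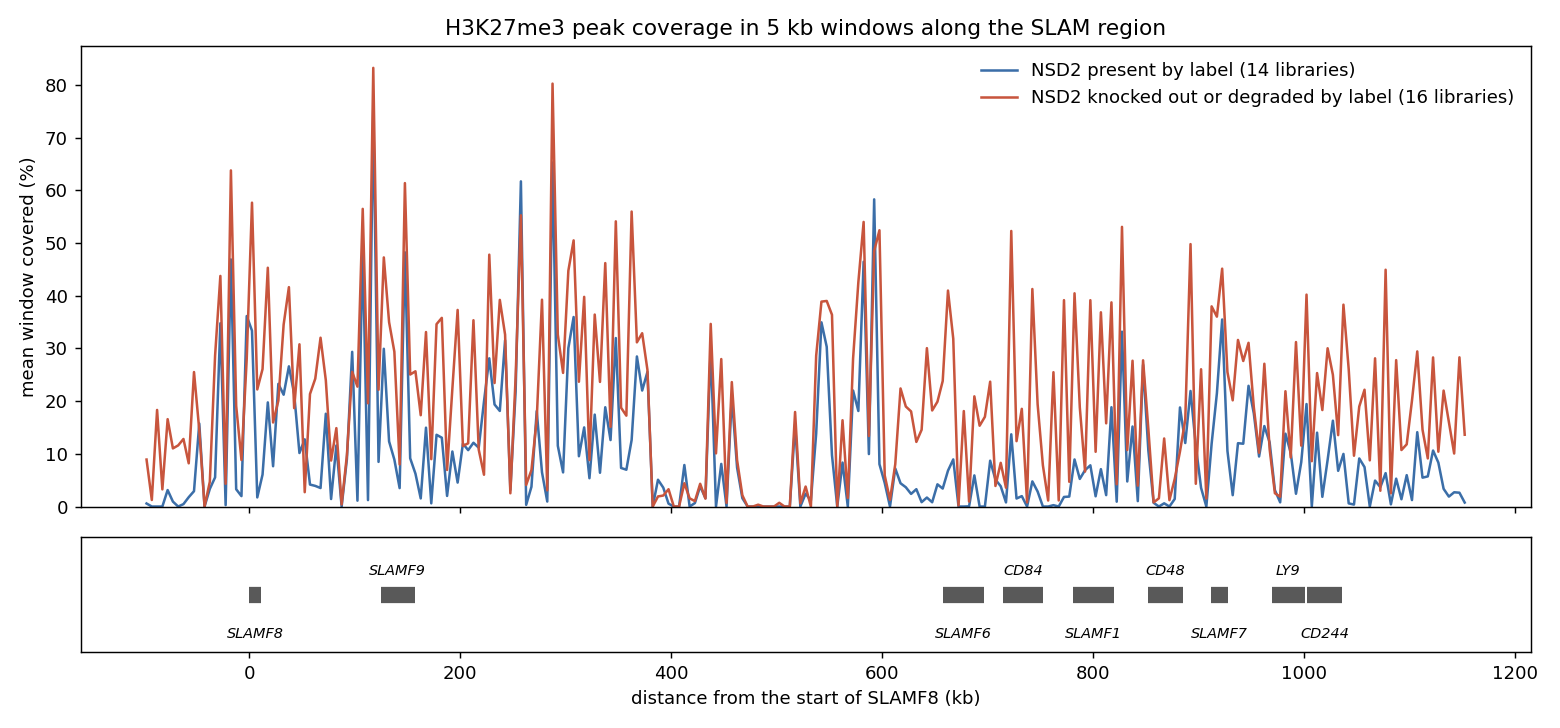
Mean percent of each 5 kb window inside H3K27me3 peaks (y axis) against the distance from the start of SLAMF8 (x axis, kb), for the 14 NSD2-bearing and the 16 NSD2-depleted libraries, with the 9 genes drawn to scale underneath. Over the block from SLAMF6 to CD244 the NSD2-depleted line runs above the other in most windows, and its libraries cover 14.6% to 22.8% of the block against 3.84% to 11.8%.

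Within 500 kb of the family lay 48 other protein-coding genes, all tested. In the KO clones 5 of 48 were gained (10.4%, against 18.0% of all genes), and at day 21 16 of 48 (33.3%, against 26.5%), with none lost. Their median difference was 2.68 points in the KO clones and 5.07 at day 21, against 1.46 and 2.05 over all genes. Among the largest gains of those called were APOA2 (an apolipoprotein of high-density lipoprotein, 65.2 points at day 21, limma adjusted p = 0.00604) and NECTIN4 (an adhesion protein, 25.5 points, adjusted p = 0.00791), both at day 21. APOA2 was at 0% in all 4 day 0 libraries and at 65.2% ± 20.2 at day 21 (SD, n = 4).

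Of the 8 members other than SLAMF8, 7 were called gained by limma at day 7 (adjusted p under 0.05) and 6 at day 14, against 21.1% and 22.0% of all genes tested. SLAMF8, which led to the family, shares its control libraries with these comparisons and is left out of these 2 counts, and with it they were 8 and 7 of 9. CD48 was the exception at day 7, and CD48 and LY9 at day 14. In the comparisons that led to the family, 5 of 9 were past the same threshold in the KO clones and 7 of 9 at day 21, where 18.0% and 26.5% of all genes were, and nothing is read from these 2 counts. No member was called lost in the 4 comparisons, where 0.744% (KO), 0.243% (day 7), 0.630% (day 14) and 0.494% (day 21) of all genes were. The median difference of the 9 genes was 15.6 points in the KO clones, 17.8 at day 7, 18.0 at day 14 and 15.3 at day 21, and over all tested genes 1.46, 1.90, 1.504 and 2.05. With SLAMF8 counted, every depleted library lay above every control library for 7 of 9 members in the KO clones, 9 at day 7, 9 at day 14 and 6 at day 21. The same held for 28.6%, 29.8%, 24.6% and 27.6% of all genes. Called length was 1.94, 2.20, 2.22 and 2.37 times and background pileup 1.22, 1.53, 1.49 and 1.62 times as high in the depleted libraries of these 4 comparisons. With SLAMF8 counted, 5, 6, 6 and 6 members were gained in the 4 comparisons with pileup as a covariate in the fit. Of all 13977 genes 2384, 1653, 2272 and 2252 were gained in that fit. When all lists were shortened to equal length 3, 2, 3 and 4 members were gained, and 251, 257, 460 and 535 of 10483 genes. No member was gained in any of the 4 with only peaks of -log10 q of at least 5 or of fold of at least 4. These left 8 and 4 members tested, and 0 to 28 and 2 to 25 of all genes were gained. Without KO parental replicate 2 the count in the KO clones was 2, and leaving out replicate 2 of either dTAG clone at day 0 made the count at day 7 5. The counts here that include SLAMF8, the KO clones or day 21 are descriptions, and no support for the family is read from them.

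As called, all 9 members already had positive differences at day 7, the first treated day sampled. Between days 7 and 21 the differences in the clones ran from -9.72 points (SLAMF7) to 4.55 (SLAMF9). No member was called by limma in that comparison and none had an unadjusted p under 0.05, and of all genes 0.472% were called and 7.10% had such a p. Set against the parental line, the change of the clones as called was larger for all 9 members at days 7 and 14, and on values scaled to called length for 5 and 4 of 9. The test of that difference, an interaction, called no member by limma at day 7 or at day 14, where 0.0358% and 0.673% of all genes were called. At an unadjusted p under 0.05 it passed for 7 of the 8 members other than SLAMF8 at day 7 and for 4 at day 14, as it did for 14.4% and 15.5% of all genes. The smallest adjusted p of a member was 0.0886, for SLAMF1 at day 14 (17.4 ± 4.87 points), and SLAMF6 had 0.0942 (18.1 ± 5.18).

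**Figure D4:**
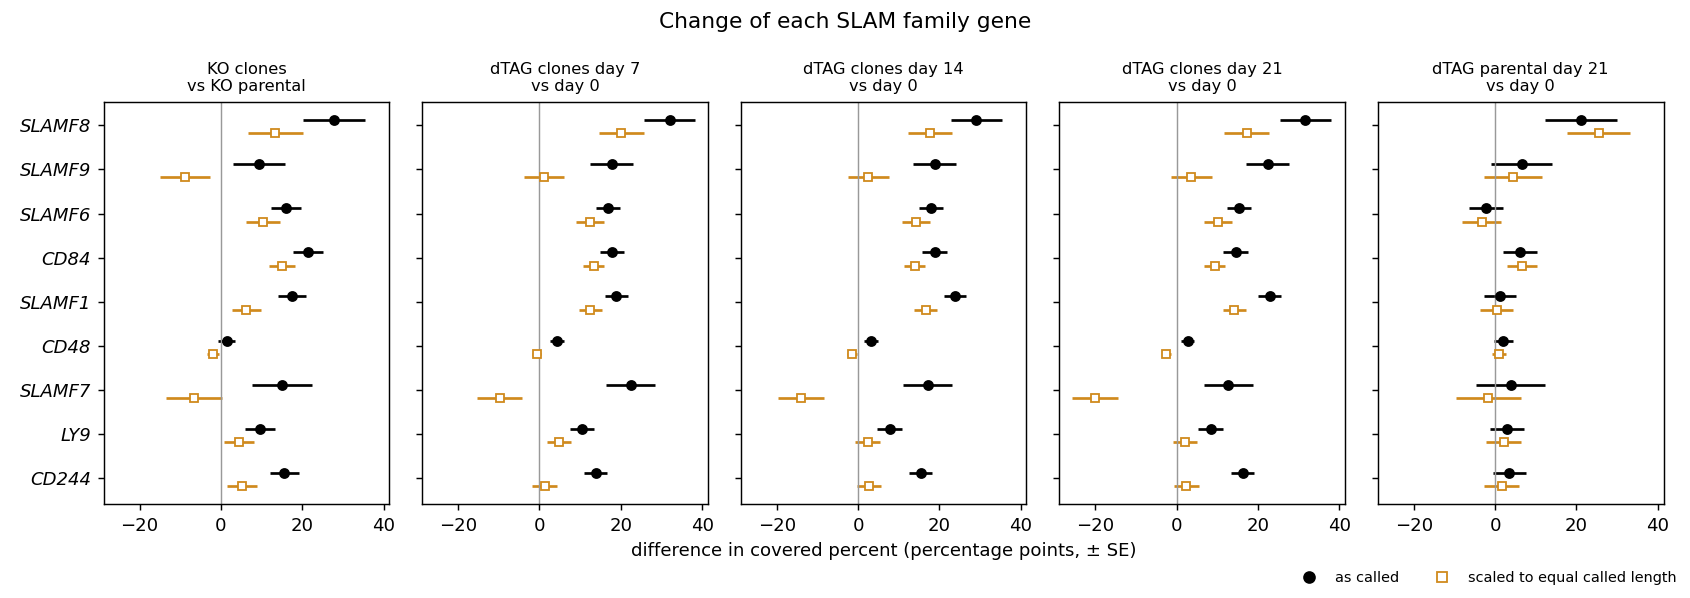
Difference in covered percent of each SLAM family gene (x axis, percentage points, with the SE of the limma fit) in 5 comparisons, as called (filled circles) and after scaling each library to equal called length (open squares). As called, every gene lies right of 0 in the 4 comparisons of clones, and after scaling SLAMF7 and CD48 lie left of 0 in all 4 (SLAMF7 at -20.0 at day 21) while SLAMF8, SLAMF6, CD84 and SLAMF1 stay right of it.

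Scaling each library to the same called length left some members above 0 and put others below 0. It asks whether a gene gained more than the lists as a whole lengthened, and moved the median difference of all genes to between -1.418 and -1.24 points in the 4 comparisons. On that scale SLAMF6 was 12.4 ± 3.42 points higher at day 7 (limma adjusted p = 0.00821) and 14.2 ± 3.42 at day 14 (adjusted p = 0.00293). CD84 was 13.4 ± 2.59 higher at day 7 (adjusted p = 0.000800) and 13.9 ± 2.59 at day 14 (adjusted p = 0.000428), and SLAMF1 12.5 ± 2.87 (adjusted p = 0.00273) and 16.7 ± 2.87 (adjusted p = 0.000229). SLAMF8 was 20.1 ± 5.49 points higher at day 7. SLAMF7 turned to a fall of 14.0 ± 5.64 at day 14 (adjusted p = 0.0485), and its values were -9.82 at day 7, -20.0 at day 21 and -6.72 in the KO clones. CD48 was also below 0 in all 4, from -2.50 to -0.713, and SLAMF9 in the KO clones alone (-8.95). LY9 and CD244 kept positive values that were not called. For SLAMF7, the scaled mean of the clones was 51.3% ± 14.7 at day 0 and 37.3% ± 5.57 at day 14 (SD, n = 4). It was 32.0% ± 13.1 in the dTAG parental line at day 0 and 36.0% ± 8.19 in the KO parental line (n = 2 each). The clones' day 0 lists were short, at 36.1 to 69.9 Mb, so scaling raised their values. A gene at 0% stays at 0% under scaling, so one nearly bare in its controls can hardly fall. When instead every list was shortened to the same called length, with its strongest peaks kept, SLAMF8 at day 7 turned to -0.720 points, and CD48 lay at -0.433, -1.15 and -0.758 at days 7, 14 and 21, while the other members stayed above 0 in the 4 comparisons.

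After scaling, 3 of the 8 members other than SLAMF8 were called gained at each of days 7 and 14. With SLAMF8, 1 of 9 was called gained in the KO clones and 4 at each of days 7, 14 and 21, where 11.5%, 14.5%, 16.1% and 16.1% of all genes were. SLAMF7 was the 1 member called lost, at days 14 and 21, and 32.0% and 31.6% of all genes were lost there, as were 13.5% in the KO clones and 29.0% at day 7.

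Clones of 1 genotype were compared as well. KO clone 3 had a higher covered percent than KO clone 12 at all 9 members as called, by 1.04 (CD48) to 15.4 points (SLAMF8), and at 5 of 9 after scaling to called length. No member was called by limma (3.96% of all genes were), and SLAMF1 (11.8 ± 3.97 points, adjusted p = 0.124) and CD84 (9.64 ± 4.29, adjusted p = 0.274) had an unadjusted p under 0.05, as 15.5% of all genes did. The lists of clone 3 were also longer, at 137 and 168 Mb against 94.0 and 123 Mb, and the scaled means of SLAMF9 (22.6% against 25.8%), CD48, SLAMF7 (26.2% against 32.3%) and CD244 were lower in clone 3. Between dTAG clones 8 and 11 at day 0 no member was called (0% of all genes), and between the KO parental line and the dTAG parental line at day 0 none was either (0.0572% of all genes). In these 2 comparisons no member had an unadjusted p under 0.05 (1.58% and 3.77% of all genes did), and the lowest were 0.257 and 0.322.

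The adaptors and enzymes below the receptors were listed too, as 21 genes, of which 15 had enough coverage to be tested. In the KO clones 5 of 15 were gained and at day 21 5 of 15, where 18.0% and 26.5% of all genes were, with none lost. Their median differences were 2.21 and 6.18 points. The largest gain in the KO clones was SH2D1B, which encodes the adaptor EAT-2 and lies on chromosome 1 outside the family (chr1:162395268-162412136). It went from 5.32% ± 3.09 (SD, n = 2) in the KO parental line to 25.6% ± 5.38 (n = 4) in the KO clones (limma adjusted p = 0.00155), and from 3.90% ± 3.13 at day 0 to 21.0% ± 6.13 at day 21 in the dTAG clones (n = 4 each, adjusted p = 0.000846). LCK, a Src family kinase, was 12.7 points higher at day 21 (adjusted p = 0.0420) and 2.39 in the KO clones (adjusted p = 0.869). PRKCQ, the protein kinase C theta, rose from 2.79% ± 1.08 to 12.4% ± 2.55 in the KO clones (adjusted p = 0.000459) and from 2.01% ± 0.367 to 12.6% ± 2.62 at day 21 (adjusted p = 2.90e-05). After scaling to equal called length, the mean over NSD2-depleted against NSD2-bearing libraries was 19.2% against 12.8% for SH2D1B, 9.40% against 3.99% for PRKCQ and 10.9% against 11.0% for LCK. SH2D1A, the adaptor SAP, falls outside the naming rule and was looked at for its role: it had no coverage in the parental and day 0 libraries of these comparisons and 2.78% ± 1.78 in the KO clones (adjusted p = 0.0262). Of the related receptors outside the block, CD58 had too little coverage to be tested and CD2 was not called, with differences of 3.36 points in the KO clones (adjusted p = 0.180) and -0.764 at day 21 (adjusted p = 0.745).

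Markers of blood cell types were read on the same scale to check the label of the cells, and their counts stand against gains of 18.0% of all genes in the KO clones and 26.5% at day 21. Of 9 plasma cell genes, 6 could be tested and none was called in the KO clones or at day 21, and JCHAIN had no peak in any library. None of 5 B cell genes was called in either comparison. Of 4 tested T cell genes 1 was gained at day 21 (CD5, 18.8 points, limma adjusted p = 0.000143), and of 4 NK cell genes 1 (KLRF1, 4.47 points, adjusted p = 0.00350). Of 4 tested monocyte and macrophage genes 1 was gained in the KO clones (LYZ, 15.6 points, adjusted p = 0.00102) and 3 at day 21, namely CD14 (58.9 points, adjusted p = 0.00493), CSF1R (14.1, adjusted p = 0.00530) and LYZ (11.8, adjusted p = 0.00121). These lists give where the mark lay, not how much of a gene was expressed.

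The genes whose covered percent was most like that of SLAMF8 over the 15 group means, among 7559 genes with a mean of at least 5%, were TSPYL1 (Pearson's r 0.969), HS1BP3 (0.964), ALPK2 (0.960), SDR42E2 (0.959) and SOAT2 (0.958). All 5 lie on other chromosomes, and their median covered percent was higher in NSD2-depleted libraries, such as 13.9% against 7.83% for TSPYL1. The 15 means share libraries and called length, and r is a description.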

How the data were processed

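The authors deposited 1 broadPeak list for each H3K27me3 library, and no pooled list. Per the submitters' processing notes, the build was hg38 and the tools were MACS3 3.0.2, fastp 0.24.0, Bowtie2, Picard, SAMtools, DESeq2, deepTools 3.5.1 and ChIPseeker 1.42.1. What each tool did, the calling options and the use of IgG were not given in the sources used here. Each peak in the authors' lists has a whole-number score, which is 10 times -log10 q without its decimals. They also deposited a fold, the ratio of a peak's pileup to the background of the caller, and the -log10 of its p and q. These values were used only to rank or filter peaks within a list and to estimate the background pileup, which assumes a pseudocount of 1 and a genome-wide background in the caller.

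Peaks of a library were merged on chromosomes 1 to 22 and X. A gene's value was the percent of its RefSeq bases (GRCh38.p14, the assembly of hg38) inside merged peaks. All 30 libraries entered 1 limma fit (limma 3.58.1, R 4.3.3, eBayes with trend, 1 mean per group, 15 residual degrees of freedom), with Benjamini-Hochberg adjusted p under 0.05 over 13977 genes. On simulated data of this size, with 200 genes changed by 20 points in the KO comparison, 115 were recovered with 9 false calls. The simulated noise was normal and independent between libraries, and no other gene changed, unlike in the real lists. The false calls therefore give no error rate for these data. Python 3.11.15, numpy 2.4.6, pandas 2.3.3 and matplotlib 3.10.9 were used for the rest.

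The members and gene lists were chosen with earlier results of these data known. All 9 members are named. From other lists, the 3 genes with the largest change among those called in the KO clones or at day 21 are named, and 5 genes by likeness to SLAMF8. One gene that the rule selects is not reported here. Promoter sequences were matched by symbol for 6 of 9 members, and CD84, SLAMF7 and LY9 are named only. Another 10 libraries in the labels (IgG, H3K27ac and H3K4me3) were not analysed here. Alternatives covered peak thresholds, list length, joining of peaks, flanks, the filter, the libraries in the fit, pileup as covariate, the replicate number as a block, and leaving out each library.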

Additional observations from a re-analysis of the deposited data

Results flagged for a closer look

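In 45 sets of 4 libraries (9 genes, in the KO clones and in the dTAG clones on each of 4 days), 2 libraries stood far from the other 3 by Dixon's test, and chance flags about 1 in 20 such sets. SLAMF9 was 36.8% covered in dTAG clone 11 day 7 replicate 2, against 30.0% to 30.9% in the other libraries of day 7. SLAMF6 was 24.3% covered in dTAG clone 11 day 7 replicate 1, against 17.9% to 18.4%. Both values were the highest of their set, and without either library the gains at day 7 stayed positive (lowest 15.0 points for SLAMF9 and 14.7 for SLAMF6 over the fits that left out 1 library).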

How the results depend on the processing

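Members gained in the KO clones and at days 7, 14 and 21 numbered 5, 8, 7 and 7, with SLAMF8 counted. These counts and those below are descriptions, since SLAMF8 led to the family. With only peaks of -log10 q of at least 5 they were 0 in each (8 members tested), and with fold of at least 4 also 0 in each (4 tested); of all genes limma then called 0 to 28 and 2 to 25 gained. Scaled by called length they were 1, 4, 4 and 4, with 1 member lost at day 14 and 1 at day 21. At equal list length they were 3, 2, 3 and 4, where 251, 257, 460 and 535 of 10483 genes were gained. With peaks joined over 3 kb they were 5 at day 7, where 1519 of 14263 genes were gained. With the fit limited to compared groups they were 2 in the KO clones, where 754 of 13977 genes were gained. Leaving out 1 library gave 2 to 6 in the KO clones (2 without KO parental replicate 2, when SLAMF8, SLAMF6 and CD244 missed the threshold), 5 to 8 at day 7 (5 without clone 8 or clone 11 day 0 replicate 2), 5 to 8 at day 14 and 6 to 7 at day 21. Flanks of 5 kb, no filter and pileup as covariate moved no count by over 1.5 times. In the 4 comparisons of clones, some single values changed sign. Scaled by called length they were SLAMF9 -8.95, CD48 -1.88 and SLAMF7 -6.72 in the KO clones. At days 7, 14 and 21 they were CD48 -0.713, -1.48 and -2.50 and SLAMF7 -9.82, -14.0 and -20.0. At equal length they were SLAMF8 -0.720 at day 7 and CD48 -0.433, -1.15 and -0.758. With -log10 q of at least 5 they were SLAMF9 -3.26 (KO) and SLAMF7 -0.844 (day 7). With fold of at least 4 they were LY9 -0.309 and CD244 -1.78 (KO), CD48 -1.32, LY9 -0.373 and CD244 -1.11 (day 7), CD48 -0.277, LY9 -0.476 and CD244 -1.94 (day 14) and CD244 -1.94 (day 21). SLAMF6 in the parental line ran from -6.67 to 2.33 without 1 library. The cause was not tested. With the replicate number as a block, 6, 8, 8 and 8 members were gained, as were 3030, 3829, 3821 and 4449 of 13977 genes. The labels do not say what the number marks, and same-numbered libraries deviated together with r of 0.0335 to 0.558 over 105 pairs of groups. Replicate 1 had the longer called length in most groups, such as 76.2 against 39.0 Mb in the dTAG parental line at day 0. In the dTAG clones at day 7 it did not. The main fit has no term for the replicate number, so its spread within groups includes this difference.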
